A study of Rattus norvegicus with 11 samples.

Results

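The mitochondrial respiratory chain and ATP synthase were followed through 97 probe sets for 87 genes, chosen by name from the 31042 probe sets and 14217 named genes of a rat microarray. A probe set was taken when its single gene symbol began with Nduf, Uqcr, Atp5 or one of the cytochrome c oxidase prefixes Cox4 to Cox8, or was Sdha, Sdhb, Sdhc, Sdhd, Cyc1 or Cycs. The genes divide into 34 for complex I, 6 for its assembly factors, 4 for complex II, 8 for complex III including cytochrome c1, 19 for complex IV and 16 for complex V. Those for complex IV include 1 pseudogene, Cox6c-ps1, which stays in the counts and medians of that complex. Another 9 probe sets of these families name several genes and were left out, so that no probe set for Cycs, cytochrome c itself, is among the members. For the 9 genes with more than 1 probe set, the gene was represented by the probe set of highest mean.

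Complexes I to IV pass electrons from NADH and succinate to oxygen and, except for complex II, pump protons across the inner mitochondrial membrane, and complex V uses the proton gradient to make ATP. Most subunits are encoded in the nucleus, while a core of the membrane subunits is encoded by mitochondrial DNA. The transcription factors NRF-1 and GABP bind many promoters of nuclear subunit genes, and the hypoxia-inducible factors are known to exchange some subunits for other isoforms when oxygen is low.

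The RNA came from whole lungs of Dahl salt-sensitive rats, which weighed 250 to 350 g, after 3.5 weeks, and was measured on 11 Affymetrix arrays. The groups were hypoxia at an inspired oxygen of about 9.5% with SU5416, which blocks receptors for vascular endothelial growth factor (3 arrays), the same hypoxia without SU5416 (4 arrays), and normoxia, that is room air (4 arrays). SU5416 in room air is not among the labelled groups, and a group given sorafenib was not analysed here. Whether the arrays stand for separate animals is not stated in the labels, so the p-values measure the spread between these samples, which may in part be technical. Values are log2 signals per probe set, and levels of different probe sets are not compared. In whole tissue, fewer cells of a type and less RNA per cell cannot be told apart.

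The members were well measured: 96 of the 97 probe sets had a mean above the array background of 5.72 log2, against 81.2% of all probe sets, and 82 of the 87 genes lay above the median of all probe sets. All 7 lung epithelium markers were above background in every group, with summed linear signals of 51201 to 55884 in hypoxia with SU5416, 47649 to 56352 in hypoxia and 46775 to 69310 in normoxia. Summed signals of 7 macrophage markers were 16425 to 19509 in hypoxia with SU5416, 12247 to 13853 in hypoxia and 12859 to 15822 in normoxia. By this sum hypoxia with SU5416 stood above the others. Taken singly, 5 of the 7 were higher in hypoxia with SU5416 than in normoxia and 2 were lower. In hypoxia against normoxia 6 were higher and 1 was lower, with a median of 0.20, although the sum was not higher. Without normoxia array 1, 4 were higher and 3 lower, with a median of 0.10. Without normoxia arrays 1 and 2, 3 were higher and 4 lower, with a median of −0.01. Summed signals of 5 endothelial markers were 18088 to 19853 in hypoxia with SU5416, 21337 to 22779 in hypoxia and 20306 to 26595 in normoxia. By this sum hypoxia with SU5416 stood below. Taken singly, 4 of the 5 were lower than in normoxia and 1 was higher. Without normoxia arrays 1 and 2, 3 of them were higher and 2 lower. The part of these cell types in the results below was not tested.

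Normoxia array 1 stood apart for these genes. It was the lowest of all 11 arrays for 53 of the 87 genes (60.9%), against 17.1% of all named genes, and its median gap to the mean of the other 3 normoxia arrays was −0.28. The gap between the 3′ and 5′ probe sets of beta-actin, a measure of RNA integrity, was 2.24 log2 on this array, 1.33 on normoxia array 2 and between 0.51 and 0.87 elsewhere. Of the differences from normoxia given below, those that turned sign or moved by more than 1.5 times without array 1 are therefore given both ways.

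For each array, the deviation of every gene from its own mean over the 11 arrays was taken, and the median over the members was formed. It was 0.12, 0.06 and 0.09 in hypoxia with SU5416, −0.02, 0.02, 0.03 and 0.01 in hypoxia, and −0.31, 0.07, 0.01 and −0.06 in normoxia. Apart from normoxia array 1, the arrays thus lay within a narrow band, and normoxia array 2 lay between the arrays of hypoxia with SU5416. On normoxia array 1 complex I deviated by −0.38, complex V by −0.33, complex III by −0.26, complex IV by −0.20 and complex II by −0.11, while the median over all named genes there was 0.03. Across the 11 arrays, 58 of the 87 genes had a Pearson correlation above 0.5 with the median of the members, which is a description that rests in part on the same low array and on each gene being part of that median.

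**Figure D1:**
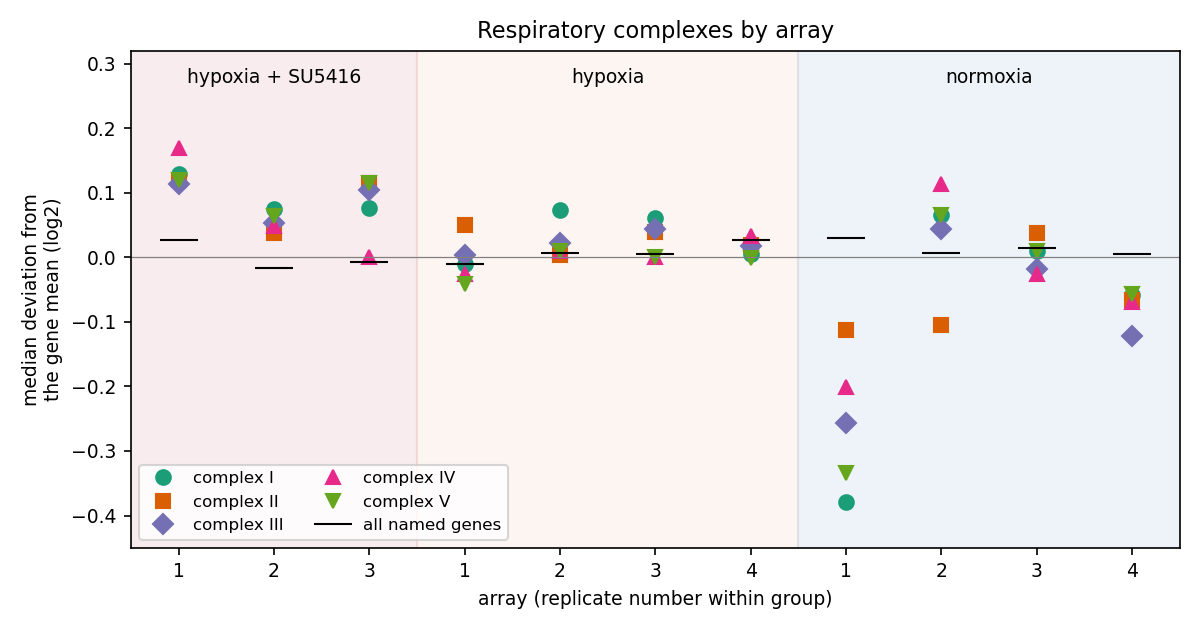
Median deviation of the genes of each complex from their means over the 11 arrays (log2, vertical axis), by array (horizontal axis), with the median over all named genes as a black bar. On normoxia array 1 complex I lies at −0.38 and complex V at −0.33, whereas the arrays of hypoxia with SU5416 lie at or above 0 for all 5 complexes.

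Hypoxia with SU5416 was set against normoxia to ask what the combined treatment changes. Most subunits were slightly higher in hypoxia with SU5416, among them Cyc1 by 0.49, Sdhb by 0.49 and Ndufa11 by 0.58 on the log2 scale, and Ndufa3 was lower by 0.50, but none passed the test. None of the 97 probe sets was called by limma at an adjusted p under 0.05, where 0.0612% of all probe sets were called, and the smallest adjusted p among members was 0.183. At an unadjusted p under 0.05, 9 probe sets were higher and 1 was lower, against 4.82% and 7.57% of all probe sets. Most members are bright, and a limma fit without the probe sets under the median level gave a higher background. There 15 of 85 members were under 0.05, and of all 15521 probe sets 1269 were higher and 1459 lower. The arrays did not overlap between the groups for 17 probe sets that were higher and 1 that was lower, against a background of 4.94% and 6.97%.

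Over the 87 genes the median difference was 0.16, with 72 genes higher (82.8%) and 15 lower. Of all named genes 47.4% were higher, with a median of −0.02. Without normoxia array 1 the members' median was 0.09, with 65 genes higher and 22 lower. Without overlap 16 of the 87 genes then lay higher and 3 lower. Of all 31042 probe sets 2130 (6.86%) lay higher and 2749 lower, a background counted per probe set and not per gene. By complex, the medians with all arrays were 0.20 for complex I (29 of 34 genes higher), 0.17 for complex II (3 of 4), 0.14 for complex III (7 of 8), 0.125 for complex IV (13 of 19) and 0.175 for complex V (16 of 16). Without normoxia array 1 they were 0.09 for complex I, 0.18 for complex II, 0.12 for complex III, 0.11 for complex IV and 0.09 for complex V, so that complexes I and V moved most with this array. Without normoxia arrays 1 and 2 the members' median was 0.13, with 68 genes higher and 18 lower. Complexes I and V then had medians of 0.13 and 0.135.

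Hypoxia alone against normoxia gave smaller shifts. None of the 97 probe sets was called by limma, against 0.00644% of all probe sets, and the smallest adjusted p was 0.329. At an unadjusted p under 0.05, 4 probe sets were higher and 1 lower, where 3.33% and 7.64% of all probe sets were so. Without normoxia array 1, 3 member probe sets were under 0.05 in either direction. Of all 31042 probe sets, 1264 were then higher and 1995 lower. The arrays did not overlap for 4 probe sets that were higher (Cox4i2, Ndufb11, Ndufb7 and Ndufv1) and for 1 that was lower (Cox5a), against 2.05% and 4.08% of all probe sets. The median difference over the 87 genes was 0.095, with 62 higher and 22 lower, against −0.005 over all named genes, of which 48.8% were higher. Without normoxia array 1 the median was 0.02, with 48 genes higher and 39 lower, so the shift of the list was smaller without that array. Without normoxia arrays 1 and 2 it was 0.0375, with 57 genes higher and 30 lower, against 48.2% of all named genes higher.

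By complex, the medians in hypoxia against normoxia were 0.11 for complex I, 0.095 for complex II, 0.115 for complex III, 0.055 for complex IV and 0.06 for complex V. Without normoxia array 1 the values were 0.01 for complex I, 0.105 for complex II, 0.05 for complex III, −0.01 for complex IV and 0.005 for complex V. The sign of complex IV turned there, whereas without normoxia arrays 1 and 2 its median was 0.02.

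Hypoxia with SU5416 was also set against hypoxia, a comparison that does not use the normoxia arrays for its means. None of the 97 probe sets was called, against 0.0258% of all probe sets, and the smallest adjusted p by limma was 0.598. At an unadjusted p under 0.05, 1 was higher (Ndufa5) and 1 was lower (Ndufa3), against 4.02% and 3.45% of all probe sets. The arrays did not overlap for 16 probe sets that were higher and 1 that was lower, against 6.27% and 5.25%. The median over the 87 genes was 0.07, with 58 higher and 29 lower, against −0.005 over all named genes. All 10 ubiquitous subunits of complex IV were higher, with a median of 0.12, whereas 2 of its 7 tissue-restricted isoforms were.

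**Figure D2:**
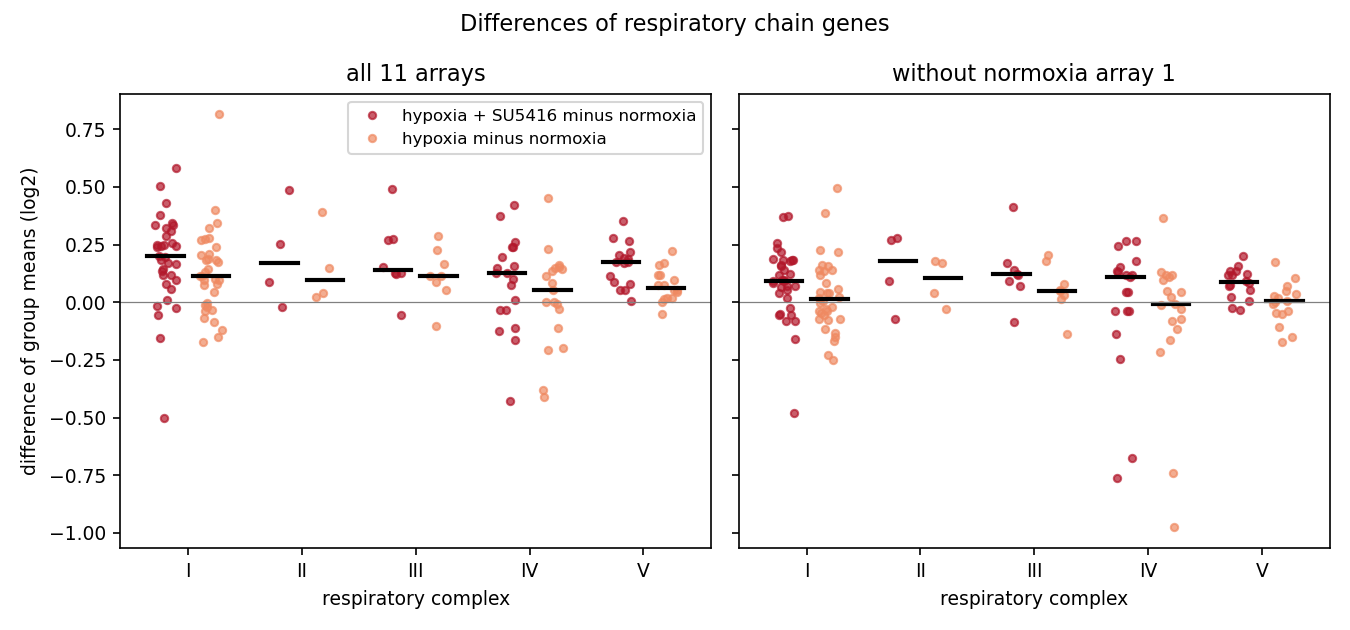
Difference of group means for each of the member genes (log2, vertical axis) by complex (horizontal axis), for hypoxia with SU5416 and for hypoxia, each minus normoxia, over all 11 arrays (left) and without normoxia array 1 (right). Points are genes and black bars are medians. The complex I median for hypoxia with SU5416 is 0.20 on the left and 0.09 on the right.

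Complex I takes electrons from NADH. Among its core subunits, Ndufs8, which carries iron-sulfur clusters, had signals of 10.52, 10.45 and 10.49 in hypoxia with SU5416, 10.29, 10.35, 10.39 and 10.28 in hypoxia, and 9.416, 10.27, 10.33 and 10.21 in normoxia. The arrays of hypoxia with SU5416 lay above all others, and the lowest value was that of normoxia array 1. Ndufs3, another core subunit, was at 10.3, 10.17 and 10.14 in hypoxia with SU5416, against 9.606, 10.08, 10.09 and 9.897 in normoxia, without overlap, and differed by 0.29 (SE 0.14, adjusted p = 0.444), or 0.18 without normoxia array 1. Ndufv1, which binds NADH, was at 10.8, 10.76, 10.69 and 10.77 in hypoxia, against 10.14, 10.59, 10.66 and 10.54 in normoxia. These did not overlap either, and the difference was 0.27 with all arrays (adjusted p = 0.466) and 0.16 without normoxia array 1. Ndufs1, the largest iron-sulfur subunit, differed by 0.06 in hypoxia with SU5416 and by −0.03 in hypoxia, each against normoxia, and by −0.06 and −0.15 without that array.

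Accessory subunits, which surround the catalytic core, held the widest differences of the complex. Ndufa11 had signals of 10.61, 10.56 and 10.55 in hypoxia with SU5416, 10.21, 10.59, 10.37 and 10.17 in hypoxia, and 9.363, 10.29, 10.28 and 10.03 in normoxia. The arrays of hypoxia with SU5416 lay above those of normoxia and among or above those of hypoxia. The difference from normoxia was 0.58 (SE 0.21, adjusted p = 0.318), and 0.37 without normoxia array 1 (adjusted p = 0.380). Ndufb7 was at 10.66, 10.5 and 10.57 in hypoxia with SU5416, 10.46, 10.5, 10.53 and 10.43 in hypoxia, and 10.06, 10.39, 10.35 and 10.28 in normoxia. Both hypoxic groups lay above normoxia without overlap, and these comparisons share the normoxia arrays.

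Ndufa3, an accessory subunit of the membrane arm, was among the 5 complex I genes lower in hypoxia with SU5416 than in normoxia. It had the widest difference of them. Its signals were 10.4, 10.4 and 10.57 in hypoxia with SU5416, 10.93, 10.95, 10.65 and 10.69 in hypoxia, and 11.02, 11.18, 10.84 and 10.79 in normoxia. The arrays of hypoxia with SU5416 lay below all 8 others, with differences of −0.50 from normoxia (SE 0.13, adjusted p = 0.183) and −0.35 from hypoxia (SE 0.13, adjusted p = 0.598). Without normoxia array 1 the difference from normoxia was −0.48, and no alternative changed its sign. Hypoxia without SU5416 differed from normoxia by −0.15, with overlapping arrays.

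The promoters of Ndufa11 and Ndufa3 are shown because these genes lay at the opposite ends of complex I in hypoxia with SU5416. Sequences are the 250 bases before the annotated start in RefSeq, build GRCr8, given 5′ to 3′ on the gene's strand. Capitals in Ndufa11 (chr9:1637364-1637613, plus strand) mark a run of 4 overlapping matches, over both strands, to GCATGCG, a core of the NRF-1 motif. Capitals in Ndufa3 (chr1:74515559-74515808, minus strand) mark ACGTG, the core of the hypoxia-inducible factor motif, read on the other strand.
Ndufa11: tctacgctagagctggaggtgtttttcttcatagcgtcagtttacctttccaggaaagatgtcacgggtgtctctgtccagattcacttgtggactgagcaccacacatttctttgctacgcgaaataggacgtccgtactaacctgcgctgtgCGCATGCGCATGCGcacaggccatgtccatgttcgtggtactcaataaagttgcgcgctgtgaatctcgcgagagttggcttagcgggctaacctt
Ndufa3: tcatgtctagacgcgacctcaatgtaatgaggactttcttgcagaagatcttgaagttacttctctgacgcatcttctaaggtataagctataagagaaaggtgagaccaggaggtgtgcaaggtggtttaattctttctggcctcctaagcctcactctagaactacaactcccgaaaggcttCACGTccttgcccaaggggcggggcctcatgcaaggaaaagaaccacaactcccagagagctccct
RefSeq promoters were matched for 78 of the 87 genes, and both strands were searched. GCATGCG was found in 11 of the 78 (14.1%), against 2.93% of all 33469 promoters, and ACGTG in 18 (23.1%), against 16.6%. Each member gene was counted once, whereas the background took every promoter listed, whether or not its gene was on the array. The shares thus rest on unlike sets. A match is a description of the letters and shows no binding.

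Ndufa5 was at 9.71, 10.3 and 9.97 in hypoxia with SU5416, against 9.236, 9.793, 9.674 and 9.236 in hypoxia, a difference of 0.51 (SE 0.21, adjusted p = 0.637) with 1 overlapping pair of arrays. Ndufb8 ranged from 5.631 to 7.702 in hypoxia with SU5416, from 7.071 to 7.716 in hypoxia and from 5.341 to 7.968 in normoxia. Its values lay below background on 1 array of hypoxia with SU5416 and on 2 arrays of normoxia, and its difference of 0.50 between hypoxia with SU5416 and normoxia had an SE of 0.68 and was 0.18 without normoxia array 1. In hypoxia against normoxia Ndufb8 differed by 0.82 with all arrays and by 0.49 without normoxia array 1. Without normoxia arrays 1 and 2 this difference was −0.23, so that its sign turned. Ndufs4 was lower by 0.16 in hypoxia with SU5416 and Ndufb6 was higher by 0.40 in hypoxia, each against normoxia (adjusted p = 0.681 and 0.455), and without normoxia array 1 Ndufs4 was lower by 0.08.

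The 6 complex I assembly factors, which are needed to build the enzyme but are not part of it, differed by a median of 0.08 between hypoxia with SU5416 and normoxia and by −0.02 between hypoxia and normoxia, or by −0.002 and −0.05 without normoxia array 1. Ndufaf3 was the only one of the 6 whose arrays did not overlap, at 9.759, 9.474 and 9.698 in hypoxia with SU5416, against 9.074, 9.454, 9.284 and 9.439 in normoxia. Of 36 assembly factors of the other complexes and of complex I with other names, 21 were higher in hypoxia with SU5416 than in normoxia, with a median of 0.03 (0.02 without normoxia array 1), and none was called. The member of smallest p was Cox10 in hypoxia with SU5416 against normoxia (difference −0.27, adjusted p = 0.310) and Foxred1 in hypoxia against normoxia (−0.44, adjusted p = 0.332).

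Complex II, succinate dehydrogenase, also works in the citric acid cycle. Of its 4 subunits, 3 were higher in hypoxia with SU5416 than in normoxia. In hypoxia against normoxia all 4 were higher, and 3 of them without normoxia array 1. Sdhb, the iron-sulfur subunit, had signals of 11.46, 11.43 and 11.46 in hypoxia with SU5416, 11.5, 11.37, 11.29 and 11.25 in hypoxia, and 10.33, 11.06, 11.32 and 11.14 in normoxia. Hypoxia with SU5416 lay above normoxia without overlap, and hypoxia overlapped normoxia at normoxia array 3. The difference of hypoxia with SU5416 from normoxia was 0.49 (SE 0.20, adjusted p = 0.369), and 0.28 without normoxia array 1.

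Sdhd, a membrane anchor of the complex, was at 11.66, 11.58 and 11.6 in hypoxia with SU5416, 11.56, 11.42, 11.56 and 11.51 in hypoxia, and 11.42, 11.31, 11.27 and 11.45 in normoxia. The arrays of hypoxia with SU5416 lay above all 8 others, and here normoxia array 1 was not low. The difference from normoxia was 0.25 (SE 0.09, adjusted p = 0.318) with all arrays and 0.27 without that array, and a second probe set of the gene differed by 0.47. Sdhc, the other anchor, differed by 0.09 and Sdha, the flavoprotein, by −0.02 in hypoxia with SU5416 against normoxia. Sdha differed by −0.07 without normoxia array 1. The 95% interval of the Sdha difference with all arrays was -0.25 to 0.20.

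The promoters of Sdhb and Sdhd are shown because these 2 subunits were the ones of complex II without overlap, and both hold the GABP motif CCGGAAG, in capitals. The other capitals, upstream in Sdhb, mark GCATGCG. The GABP motif is read on the gene's strand in Sdhb (chr5:158547684-158547933, plus strand) and on the other strand in Sdhd (chr8:59850642-59850891, minus strand).
Sdhb: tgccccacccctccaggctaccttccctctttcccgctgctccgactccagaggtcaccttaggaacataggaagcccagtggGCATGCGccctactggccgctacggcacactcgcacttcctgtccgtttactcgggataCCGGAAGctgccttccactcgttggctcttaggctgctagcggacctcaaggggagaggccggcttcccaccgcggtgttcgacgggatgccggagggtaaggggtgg
Sdhd: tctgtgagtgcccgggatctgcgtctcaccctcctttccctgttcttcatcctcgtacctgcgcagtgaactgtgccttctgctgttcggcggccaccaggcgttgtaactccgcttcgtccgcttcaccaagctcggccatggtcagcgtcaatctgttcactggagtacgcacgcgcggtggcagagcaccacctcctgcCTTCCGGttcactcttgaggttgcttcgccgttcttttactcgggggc
CCGGAAG was found in 21 of the 78 promoters of members (26.9%), against 7.27% of all promoters, with the same unlike sets. By complex it was in 7 of 32 promoters for complex I, 2 of 4 for complex II, 3 of 6 for complex III, 2 of 15 for complex IV and 5 of 15 for complex V.

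Complex III passes electrons from ubiquinol to cytochrome c. Cyc1, cytochrome c1, was at 10.95, 11.22 and 11.07 in hypoxia with SU5416, 10.96, 10.88, 10.91 and 10.74 in hypoxia, and 10.35, 10.75, 10.75 and 10.5 in normoxia. Every array of hypoxia with SU5416 lay above normoxia, and the lowest hypoxia array lay within the normoxia range. The mean was 11.08 ± 0.14 in hypoxia with SU5416 (SD, n = 3) and 10.59 ± 0.20 in normoxia (SD, n = 4), a difference of 0.49 (SE 0.13, adjusted p = 0.184), and 0.41 without normoxia array 1. In hypoxia against normoxia Cyc1 differed by 0.285 (adjusted p = 0.436), and by 0.21 without that array.

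Uqcrq, a small accessory subunit, was at 11.64, 11.63 and 11.68 in hypoxia with SU5416, against 11.07, 11.47, 11.47 and 11.5 in normoxia, without overlap, and differed by 0.27 (adjusted p = 0.444), or 0.17 without normoxia array 1. Uqcrfs1, the Rieske iron-sulfur protein, differed by 0.27 in hypoxia with SU5416 and by 0.23 in hypoxia, each against normoxia, with overlapping arrays. These were 0.12 and 0.08 without normoxia array 1. Uqcrh, the hinge protein, was lower than in normoxia by 0.05 in hypoxia with SU5416 and by 0.10 in hypoxia, and by 0.09 in hypoxia with SU5416 without that array.

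Complex IV, cytochrome c oxidase, is the site of oxygen use and the complex with the most exchangeable isoforms. Cox4i2, the lung-enriched form of subunit 4, is induced through hypoxia-inducible factor 1 in cultured human and mouse cells. It had signals of 9.583, 9.96 and 9.737 in hypoxia with SU5416, 10.13, 9.959, 9.981 and 9.808 in hypoxia, and 9.258, 9.774, 9.447 and 9.595 in normoxia. All 4 hypoxia arrays lay above all 4 normoxia arrays, and hypoxia with SU5416 lay between them and overlapped both. The mean was 9.97 ± 0.13 in hypoxia and 9.52 ± 0.22 in normoxia (SD, n = 4 each).

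Hypoxia thus differed from normoxia in Cox4i2 by 0.45 (SE 0.14, adjusted p = 0.329), or by 0.36 without normoxia array 1 (adjusted p = 0.426). Hypoxia with SU5416 differed by 0.24 from normoxia (adjusted p = 0.539), or 0.15 without that array, and by −0.21 from hypoxia (adjusted p = 0.821). Cox4i1, the ubiquitous form of the subunit, differed from normoxia by 0.12 in hypoxia with SU5416 and by 0.00 in hypoxia (−0.01 without normoxia array 1), and the 95% interval of the difference in hypoxia was -0.22 to 0.22. Ndufa4l2, a paralog of the complex IV subunit Ndufa4 and also a target of hypoxia-inducible factor 1 in cultured cells, differed from normoxia by −0.11 in hypoxia with SU5416 and by −0.03 in hypoxia, or by −0.25 and −0.17 without normoxia array 1.

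Cox5a, a ubiquitous subunit next to the catalytic core, ran the other way. It was at 9.129, 9.277 and 9.228 in hypoxia with SU5416, 9.105, 9.22, 9.021 and 9.184 in hypoxia, and 9.311, 9.246, 9.383 and 9.413 in normoxia. The hypoxia arrays lay below all normoxia arrays, by a mean of 0.21 (SE 0.09, adjusted p = 0.445), and the difference was −0.22 without normoxia array 1. Hypoxia with SU5416 overlapped normoxia and differed by −0.13.

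Cox5b and Cox6b1 are further ubiquitous subunits. Cox6b1 was at 12.27, 11.97 and 12.13 in hypoxia with SU5416, 11.96, 11.9, 11.88 and 11.87 in hypoxia, and 11.43, 11.99, 11.88 and 11.7 in normoxia, and differed from normoxia by 0.37 (SE 0.14, adjusted p = 0.329). Its arrays overlapped those of normoxia at array 2 of that group. Cox5b was at 11.91, 11.53 and 11.69 in hypoxia with SU5416, 11.46, 11.57, 11.52 and 11.52 in hypoxia, and 10.56, 11.57, 11.52 and 11.5 in normoxia. Hypoxia with SU5416 overlapped normoxia in Cox5b and differed by 0.42 with all arrays (adjusted p = 0.484) and by 0.18 without normoxia array 1 (adjusted p = 0.614). Hypoxia differed from normoxia by 0.23 with all arrays and by −0.01 without that array. Ndufa4 was at 12, 11.86 and 11.91 in hypoxia with SU5416 and did not exceed 11.84 on any other array. Cox6a1, Cox8a and Cox7a2l, the last a factor that joins complexes III and IV, differed from normoxia by 0.07, 0.12 and −0.16 in hypoxia with SU5416. Cox6a1 differed by 0.04 and Cox7a2l by −0.04 without normoxia array 1.

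**Figure D3:**
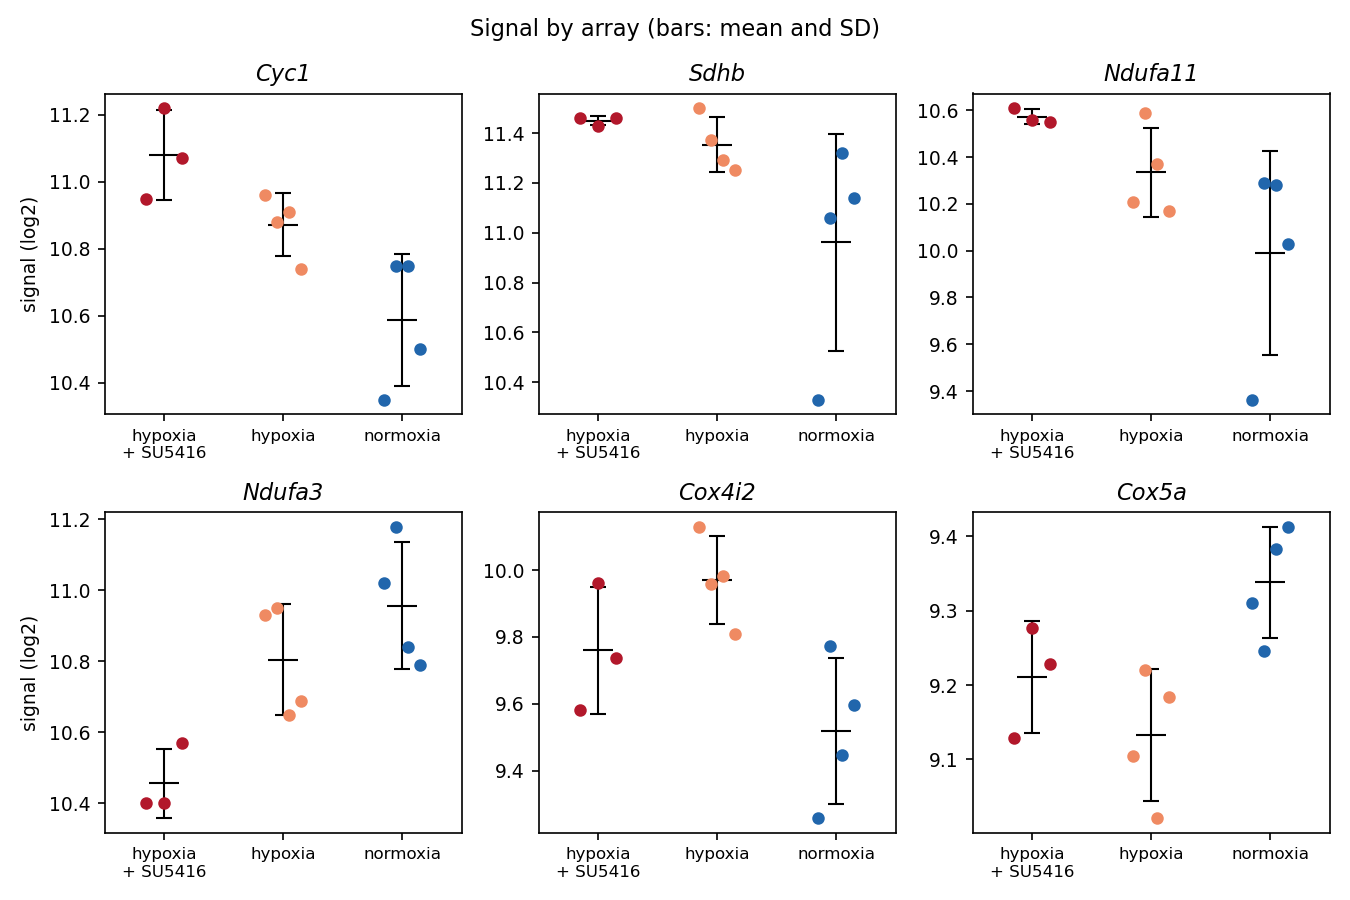
Signal (log2, vertical axis) on each array for 6 genes, with groups on the horizontal axis, points for arrays and bars for the mean and SD. Cyc1, Sdhb and Ndufa11 lie above all normoxia arrays in hypoxia with SU5416, Ndufa3 lies below them there, and Cox4i2 lies above and Cox5a below all normoxia arrays in hypoxia.

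The muscle isoforms Cox6a2 and Cox8b varied more between arrays than between groups. Cox6a2, the heart and skeletal muscle form of subunit 6a, had signals of 8.148, 7.891 and 6.864 in hypoxia with SU5416, 7.881, 7.681, 7.005 and 6.775 in hypoxia, and 5.199, 8.266, 9.803 and 6.863 in normoxia. The highest and the lowest of the 11 values were both in normoxia. Rat lung contains cardiac muscle in the walls of the pulmonary veins, and 14 cardiac markers were measured, 12 of them above background and Actn2 and Myoz2 below it. Their summed linear signal was 6843, 5427 and 2159 in hypoxia with SU5416, 4920, 4900, 1687 and 2612 in hypoxia, and 1679, 7947, 21975 and 1615 in normoxia.

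Across the 11 arrays the log2 of this sum had a Pearson correlation of 0.92 with Cox6a2 (Spearman 0.92), the highest of the 87 genes, and of 0.88 with Cox8b (Spearman 0.76). It was 0.97 and 0.86 without normoxia array 1, and 0.87 and 0.89 without normoxia arrays 3 and 4, the farthest from the median of the sum. The median correlation over the 87 genes was 0.26, that of Ndufs1 was 0.72 and that of Cox7a1, the muscle form of subunit 7a, was −0.23. Cox7a1 lay between 9.897 and 10.35 on all arrays. These correlations describe 11 arrays that share normalization. The differences of Cox6a2 from normoxia, 0.10 in hypoxia with SU5416 and −0.20 in hypoxia, had an SE of 0.89 and 0.82, and those of Cox8b, −0.43 and −0.41, an SE of 0.46 and 0.42. They were −0.68 and −0.98 for Cox6a2 and −0.76 and −0.74 for Cox8b without normoxia array 1.

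**Figure D4:**
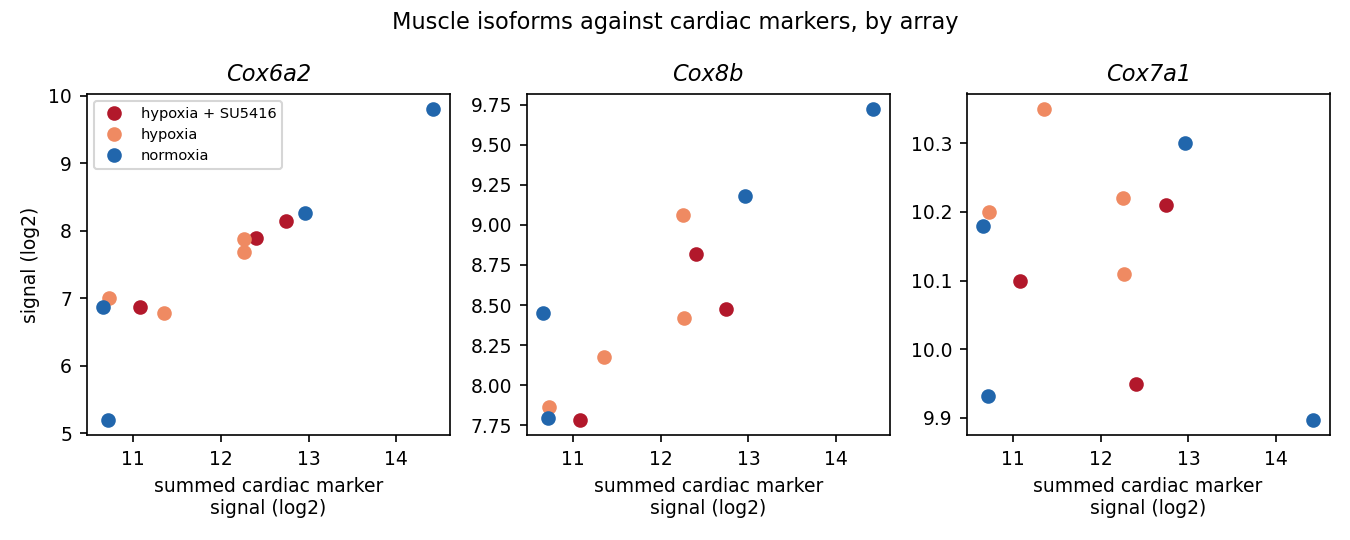
Signal of Cox6a2, Cox8b and Cox7a1 (log2, vertical axes) against the summed signal of cardiac markers (log2, horizontal axes) on the 11 arrays, coloured by group. Cox6a2 and Cox8b are highest on the normoxia array with the highest marker sum, and Cox7a1 shows no such order.

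Cox6b2 and Cox7b2, isoforms known mainly from testis, were low. Cox6b2 lay between 6.423 and 7.315 on all arrays. Cox7b2 lay between 4.63 and 6.779, on both sides of the background, and no difference is given for it.

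Complex V, the ATP synthase, makes ATP from the proton gradient. All 16 genes were higher in hypoxia with SU5416 than in normoxia, by 0.005 to 0.35, and 14 of them without normoxia array 1. Atp5mg, subunit g, was at 12.22, 12.18 and 12.28 in hypoxia with SU5416, 12, 12.07, 12.07 and 12.24 in hypoxia, and 11.42, 12.16, 12.03 and 11.89 in normoxia. Hypoxia with SU5416 lay above normoxia without overlap, by 0.35 (SE 0.16, adjusted p = 0.421), and by 0.20 without normoxia array 1.

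Atp5if1, which inhibits ATP hydrolysis by the enzyme, was at 10.38, 10.33 and 10.56 in hypoxia with SU5416, 10.09, 10.17, 10.35 and 10.03 in hypoxia, and 9.781, 10.24, 10.31 and 10.25 in normoxia. It lay above normoxia without overlap, by 0.28 (adjusted p = 0.476), or 0.16 without normoxia array 1, and differed from hypoxia by 0.26 with 1 overlapping array. Atp5f1a, the alpha subunit of the catalytic head, was at 11.72, 11.65 and 11.73 in hypoxia with SU5416 and at 11.51, 11.58, 11.48 and 11.53 in hypoxia. These did not overlap and differed by 0.17 (adjusted p = 0.854). Atp5mc3, which encodes the proton-carrying c subunit, differed by −0.05 and Atp5pf, a subunit of the stalk, by 0.17 in hypoxia against normoxia, and without normoxia array 1 Atp5pf differed by 0.04.

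The subunits encoded by mitochondrial DNA were represented by COX1 and COX2, catalytic subunits of complex IV. COX1 was at 13.55, 13.57 and 13.49 in hypoxia with SU5416, 13.45, 13.37, 13.38 and 13.53 in hypoxia, and 14.11, 13.84, 13.28 and 13.35 in normoxia. COX2 was at 13.56, 13.8 and 13.58 in hypoxia with SU5416, 13.67, 13.4, 13.46 and 13.51 in hypoxia, and 14.11, 14.04, 13.38 and 13.59 in normoxia. Both transcripts were highest on normoxia array 1, where most nuclear subunits were lowest, and next on array 2, the other array with a wide beta-actin gap. COX2 differed from normoxia by −0.13 in hypoxia with SU5416 (adjusted p = 0.807) and by −0.27 in hypoxia (adjusted p = 0.580). They were −0.02 and −0.16 without normoxia array 1. Without normoxia arrays 1 and 2 these differences were 0.16 and 0.025, so that their sign turned.

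Further lists of mitochondrial genes were set beside the subunits, and none of their genes was called in any of the 3 comparisons. Of 73 mitochondrial ribosomal proteins, 62 were higher in hypoxia with SU5416 than in normoxia, with a median of 0.11, and 50 in hypoxia, with a median of 0.05. Without normoxia array 1 these medians were 0.07 and −0.002. The member of smallest p, Mrpl2, was at 8.635, 8.639 and 8.961 in hypoxia with SU5416, 8.769, 8.702, 8.72 and 8.656 in hypoxia, and 7.827, 8.38, 8.308 and 7.998 in normoxia. Both hypoxic groups lay above normoxia, by 0.62 (adjusted p = 0.161) and 0.58 (adjusted p = 0.257).

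Of 18 genes of fatty acid oxidation 15 were higher in hypoxia with SU5416 than in normoxia, with a median of 0.17 (0.08 without normoxia array 1), and of 15 genes of pyruvate dehydrogenase and the citric acid cycle 13 were, with a median of 0.09 (0.05 without that array). Carriers and chaperones of the mitochondrion were higher for 12 of 13, by a median of 0.09 (0.05 without that array). The 17 regulators of mitochondrial biogenesis had a median of −0.02 (−0.04 without that array), with 7 higher. Gabpa, which encodes a subunit of GABP, had the smallest p among them in hypoxia against normoxia, with a difference of 0.32 (adjusted p = 0.416). The members of smallest p in the other lists, for hypoxia with SU5416 against normoxia, were Etfb, Pdhx, Hspa9 and Ssbp1, with differences of 0.38, 0.30, 0.30 and 0.36. For hypoxia against normoxia they were Eci1, Dlst, Tomm40 and Prdx5, with differences of 0.22, 0.19, 0.35 and 0.23, and all 8 adjusted p-values lay between 0.261 and 0.639. The difference was 0.22 for Ssbp1, 0.06 for Eci1 and 0.08 for Prdx5 without normoxia array 1.

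Of 12 genes that link hypoxia to mitochondria, 9 were higher in each hypoxic group than in normoxia, and the medians were 0.13 in hypoxia with SU5416 and 0.095 in hypoxia, or 0.03 and 0.003 without normoxia array 1. The lowest difference of this list in hypoxia with SU5416 against normoxia, −0.1115, equals that of the member Ndufa4l2. The list may therefore not be separate from the members. Bnip3, which promotes the removal of mitochondria, was at 11.32, 11.02 and 11.06 in hypoxia with SU5416, 11.43, 11.46, 10.84 and 10.54 in hypoxia, and 10.08, 10.64, 10.28 and 10.25 in normoxia. It lay above normoxia without overlap in hypoxia with SU5416, by 0.82 (adjusted p = 0.212). Hif1a, the oxygen-regulated subunit of hypoxia-inducible factor 1, was at 11.96, 12.06, 12.19 and 11.88 in hypoxia, against 11.64, 11.61, 11.52 and 11.51 in normoxia, a difference of 0.45 without overlap (adjusted p = 0.259).

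Among 8 mitochondrial antioxidants, 7 were higher in hypoxia with SU5416 than in normoxia, with a median of 0.14 (0.06 without normoxia array 1). Sod2, the superoxide dismutase of the matrix, was at 11.44, 11.17 and 11.28 in hypoxia with SU5416, 10.82, 10.77, 10.85 and 10.81 in hypoxia, and 10.31, 10.85, 10.93 and 10.8 in normoxia. It lay above all 8 other arrays in hypoxia with SU5416, by 0.57 against normoxia (adjusted p = 0.180) and 0.48 against hypoxia (adjusted p = 0.504). Macrophages also express this gene, and their summed markers were higher on the same 3 arrays, whose part in the result was not tested.

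Probe sets of the same gene did not always run the same way. Of the 9 genes with several, 8 had probe sets of opposite sign in at least 1 comparison (Atp5if1, Atp5me, Atp5po, Ndufa7, Ndufa9, Ndufaf7, Ndufv3 and Uqcrc2), and Sdhd did not. In Uqcrc2 the probe sets differed by 0.09 and −0.70 in hypoxia against normoxia, and the lower of these values came from the probe set of lower mean. The higher was 0.03 without normoxia array 1.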

How the data were processed

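RNA from whole lung was hybridised to single-colour Affymetrix rat arrays. The deposited values are log2 signals per probe set, summarised with RMA per the submitters' processing notes, which give no version. Their 2%-trimmed linear mean is 500 on every array and the distributions differ in shape, so the summarisation is uncertain. Values were used as deposited. One limma fit (version 3.58.1, R 4.3.3) with a mean per group took all 11 arrays (8 residual degrees of freedom), was two-sided, adjusted by Benjamini-Hochberg over 31042 probe sets after 57 controls were set aside, and was tested on simulated data. Background is the 95th percentile of 27 bacterial control probe sets. Gene names come from the array's annotation, matched to RefSeq for all 97 members. Members, lists, alternatives and motif cores were chosen with earlier results of these data known. Genes named are a fixed panel, the 2 widest differences per complex, direction and comparison, and the member of smallest p in each list; Ndufs8, Ndufb7, Ndufb11, Ndufaf3, COX1 and the genes shown for probe sets that disagree were chosen after their values were seen. The number of arrays limits the precision. Tables and promoter searches used pandas 2.3.3 under Python 3.11.15, and matplotlib 3.10.9 drew the plots.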

Additional observations from a re-analysis of the deposited data

Results flagged for a closer look

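Single arrays stood apart from the rest of their group of 4 by Dixon's criterion in 6 of 132 groups examined, where chance gives about 1 in 20, and 5 of the 6 were normoxia array 1. On that array Cox5b was at 10.56 (other normoxia arrays 11.5 to 11.57), Uqcrq at 11.07 (11.47 to 11.5), Ndufa4 at 11.3 (11.79 to 11.84), Atp5if1 at 9.781 (10.24 to 10.31) and Atp5f1a at 11.07 (11.63 to 11.72). Sdha was at 11.63 on hypoxia array 4, against 11.5 to 11.52 on the other hypoxia arrays. The beta-actin gap of 2.24 stands beside the values of normoxia array 1, and its part in them was not tested for these genes singly.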

How the results depend on the processing

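No member was called at an adjusted p under 0.05 under any of the alternatives run. Members under 0.1 were seen in some. In hypoxia with SU5416 against normoxia the smallest adjusted p by limma was 0.0713 for Ndufa3 with dim probe sets left out. It was 0.0865 for Cyc1 with limma's trend and robust options. In hypoxia against normoxia it was 0.0708 for the Uqcrc2 probe set of lower mean without normoxia arrays 1 and 2. Of all probe sets, 567 of 15521, 422 of 31042 and 600 of 31042 were under 0.1 in these settings, in that order. Between hypoxia with SU5416 and hypoxia the smallest over all settings was 0.321, and the number of members at an unadjusted p under 0.05 ranged from 4 to 19, 1 to 12 and 0 to 7 in these comparisons. The members' median stayed positive throughout, between 0.09 and 0.21, 0.02 and 0.185, and 0.03 and 0.09. Averaging the probe sets of a gene gave complex II a median of 0.23 in hypoxia with SU5416 against normoxia. Centring on the array median gave complexes II and III medians of 0.185 and 0.205 in hypoxia against normoxia. Centring also raised the median over all named genes, to 0.085 from −0.005, with 9376 of 14217 genes higher. No sign of pairing by replicate number was seen (correlations of same-numbered arrays from −0.12 to 0.13), which cannot show that the arrays are unpaired. With the replicate block no member was called (0 in each comparison). Of 108 gene differences, 83 kept their sign under all 21 alternatives and 25 did not, and the cause was not tested.

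In hypoxia with SU5416 against normoxia, Cox6a2 differed by −0.44 with array weights, −0.10 with the replicate block, −0.935 with the beta-actin gap as a covariate and −0.70 without normoxia arrays 1 and 2; array weights gave Cox7a1 −0.000371 and Ndufs1 −0.0158. The beta-actin covariate gave Cox7a1 −0.00559, Cox7a2l 0.0431, Ndufb8 −0.23, Ndufs1 −0.12 and COX2 0.0874; leaving out normoxia arrays 1 and 2 gave Cox7a2l 0.0633, Ndufb8 −0.54, Ndufs1 −0.125 and COX2 0.16. Centring gave Sdha 0.0275, and averaging probe sets gave Hspa9 −0.0601. In hypoxia against normoxia, centring gave Atp5mc3 0.0375, Cox7a2l 0.0825, Ndufa4l2 0.0593 and Ndufs1 0.0555; array weights gave Cox7a2l 0.0692, Ndufa4 −0.00582 and Sdha −0.00361; the beta-actin covariate gave Cox7a2l 0.13, Ndufa4 −0.0487, Ndufs3 −0.0112 and Sdha −0.00923. Without normoxia arrays 1 and 2 the values were Atp5mc3 0.0375, Cox7a2l 0.22, Ndufa4 −0.06, Ndufb8 −0.23, Ndufs3 −0.0005 and COX2 0.025, and quantile normalization gave Sdha −0.0177 and Sdhc −0.00295. In hypoxia with SU5416 against hypoxia, the beta-actin covariate gave Cox6a2 −0.0471 and Sdhb −0.00177, and the replicate block gave Ndufb8 0.0155.

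With each array left out in turn, differences that changed sign in hypoxia with SU5416 against normoxia ranged from −0.68 to 0.86 for Cox6a2, −0.0525 to 0.0837 for Cox7a1, −0.29 to 0.047 for Ndufa4l2, −0.0567 to 0.16 for Ndufs1 and −0.0733 to 0.0225 for Sdha. In hypoxia against normoxia they ranged from −0.0842 to 0.00583 for Atp5mc3, −0.0125 to 0.32 for Cox5b, −0.98 to 0.56 for Cox6a2, −0.0933 to 0.12 for Cox7a2l, −0.0733 to 0.11 for Ndufa4, −0.17 to 0.0535 for Ndufa4l2, −0.15 to 0.07 for Ndufs1, −0.0293 to 0.13 for Ndufs3 and −0.03 to 0.0633 for Sdha. In hypoxia with SU5416 against hypoxia they ranged from −0.12 to 0.03 for Atp5mk and −0.68 to 0.35 for Ndufb8.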

Other observations

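Summed linear signals of other cell types varied between the groups as well. Those of 6 lymphocyte markers were 1446 to 1634 in hypoxia with SU5416, 1280 to 1479 in hypoxia and 1660 to 2211 in normoxia, so that both hypoxic groups lay below normoxia. Those of 4 erythroid markers were 11086 to 12547 in hypoxia with SU5416, 8858 to 12405 in hypoxia and 5975 to 11048 in normoxia. Those of 7 fat markers were 1310 to 2439 in hypoxia with SU5416, 1241 to 1735 in hypoxia and 1025 to 2909 in normoxia.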
